A study of Mus musculus with 2 samples.

Results

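Prostaglandins are short-lived lipid signals that endothelial cells (ECs) both make and clear. Cytosolic phospholipase A2 (Pla2g4a) frees arachidonic acid from membranes, the cyclooxygenases COX-1 (Ptgs1) and COX-2 (Ptgs2) convert it to prostaglandin H2, and the synthases encoded by Ptgis and Ptges turn prostaglandin H2 into prostacyclin and prostaglandin E2. Slco2a1 encodes the transporter that takes prostaglandins up from the blood, and Hpgd encodes 15-hydroxyprostaglandin dehydrogenase, which inactivates them. The lung is a main site of this clearance, and prostacyclin from the vessel wall relaxes vessels and restrains platelets.

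These 7 genes, named as the synthesis and transport set, were followed among the 31053 genes counted in lung cells of wild-type C57BL/6 mice that were sorted on PECAM1, a surface protein of endothelium. The control library came from mice given PBS by tail vein and the metastatic library from mice given 200000 cells of the melanoma line B16-F10, both taken after 6 h. Each library pooled the cells of 2 mice and each group held 1 library, so that no difference between the groups has a replicate check and no test was made. All intervals below are 95% intervals for counting error and do not cover variation between mice. Those of levels and ratios are for the counting of molecules and also leave out variation between cells.

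Barcodes in which 1000 to 5000 genes and less than 20% mitochondrial molecules were counted were taken as cells, 7134 in the control and 6466 in the metastatic library, from library totals of 67929614 and 64733724 unique molecular identifiers (UMIs, each tagging 1 captured RNA molecule). General capillary cells (gCap, which carry 2 or more of Gpihbp1, Aplnr, Kit and Lpl) numbered 5020 and 4519. Aerocytes, the large capillary cells of gas exchange (2 or more of Ednrb, Fibin and Tbx2), numbered 1364 and 1086. Vein cells (2 or more of Slc6a2, Car8 and Bst1) numbered 247 and 304, and artery cells (2 or more of Gja5, Bmx and Fbln5) 63 and 59. Between 98.0% and 100% of the cells of each class carried 2 or more of 6 general endothelial markers. Barcodes meeting more than 1 of the aerocyte, vein and artery rules (46 and 32) were left out, no doublet caller was run, and 16 barcode sequences were called in both libraries. Levels are UMIs scaled to a total of 1000000 per class (CPM). Since the kit tags 1 end of each molecule, CPM was not scaled by gene length, and levels are compared between classes and libraries rather than between genes.

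The set divided into genes found in all 4 EC classes (Hpgd and Slco2a1), a gene found in gCap, aerocyte and vein cells (Ptgs1) and genes found mainly in vein cells (Ptgs2, Ptgis and Pla2g4a), whereas Ptges was close to the limit of detection. In the metastatic library Ptgs1 and Hpgd were lower in gCap, aerocyte and vein cells, and Slco2a1 was lower by a smaller amount. Of the vein genes, Ptgis and Pla2g4a had log2 ratios of metastatic to control above 0 in vein cells and Ptgs2 one below 0, and the intervals of their levels overlapped between the libraries for all 3.

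**Figure D1:**
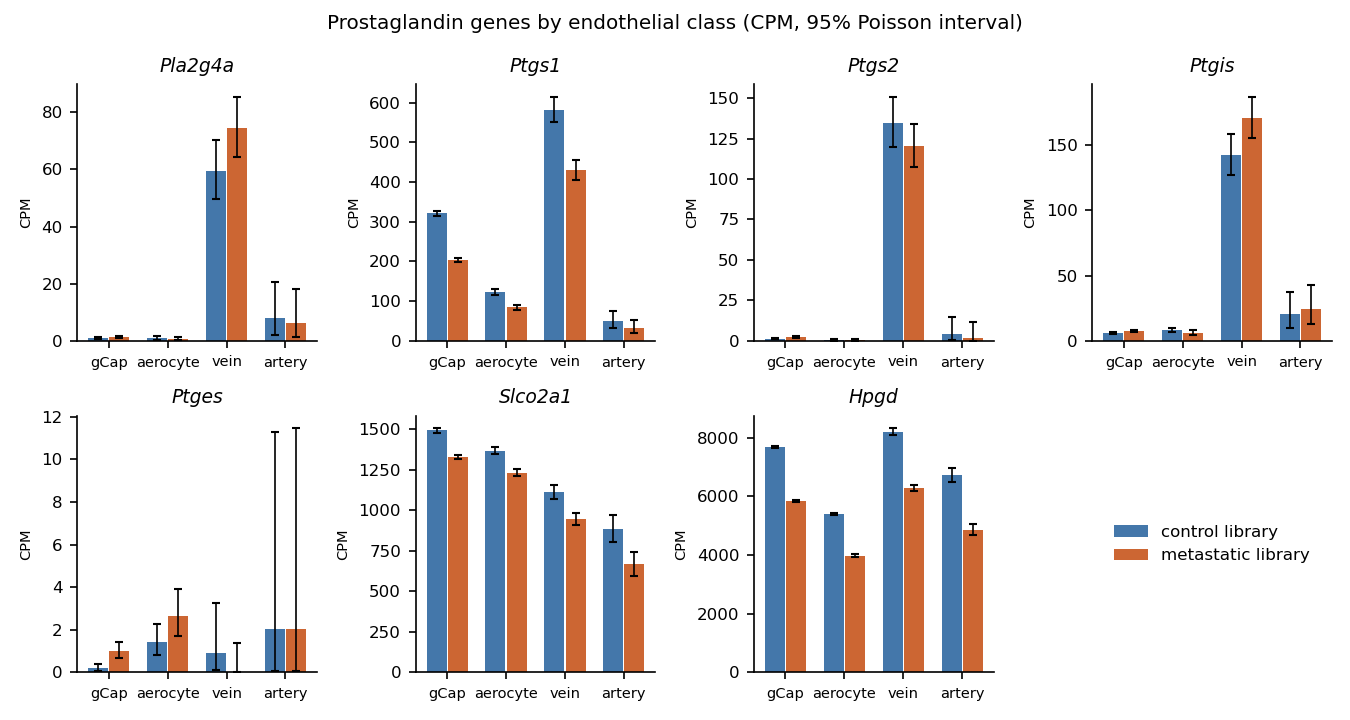
Levels of the 7 genes in CPM (vertical axis, linear, a separate scale for each gene) in gCap, aerocyte, vein and artery cells of the control and metastatic libraries, with bars for the level and lines for its 95% Poisson interval. Ptgs2, Ptgis and Pla2g4a stand out in vein, and Hpgd is lower in the metastatic library in all 4 classes.

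The genes lie on 4 chromosomes of GRCm38 (the assembly also called mm10), with positions from GENCODE M21. Pla2g4a (chromosome 1, 149829618 to 149961290, minus strand) and Ptgs2 (chromosome 1, 150100031 to 150108227, plus strand) are neighbours that face away from each other across 138740 bases. Ptgs1 (36230426 to 36252272, plus strand), Ptges (30889471 to 30929863, minus strand) and Ptgis (167191805 to 167240604, minus strand) lie on chromosome 2, Slco2a1 on chromosome 9 (102988712 to 103096002, plus strand) and Hpgd on chromosome 8 (56294585 to 56321043, plus strand).

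Promoter windows of 300 bases, from 250 before to 50 after a RefSeq transcription start on GRCm38.p6, matched 6 of the 7 genes. The 3 genes that were lower together in the metastatic library are shown first, Ptgs1 at chr2:36230176-36230475 (plus strand), Hpgd at chr8:56294302-56294601 (plus strand) and Slco2a1 at chr9:103008237-103008536 (plus strand). The pair of neighbours found, among the EC classes, mainly in vein cells follows, Ptgs2 at chr1:150099781-150100080 (plus strand) and Pla2g4a at chr1:149961241-149961540 (minus strand). Capitals mark matches, on either strand, to a cyclic AMP response element core (TGACGT), an E-box (CACGTG), a C/EBP palindrome (TTGCGCAA), the hexamer bound by the glucocorticoid receptor (AGAACA) or a TATA box (TATAAA).
Ptgs1: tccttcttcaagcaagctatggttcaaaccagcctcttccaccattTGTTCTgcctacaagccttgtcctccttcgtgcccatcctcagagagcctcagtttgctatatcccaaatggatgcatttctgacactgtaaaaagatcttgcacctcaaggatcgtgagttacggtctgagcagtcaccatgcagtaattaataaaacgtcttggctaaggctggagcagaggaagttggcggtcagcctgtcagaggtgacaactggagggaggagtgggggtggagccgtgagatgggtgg
Hpgd: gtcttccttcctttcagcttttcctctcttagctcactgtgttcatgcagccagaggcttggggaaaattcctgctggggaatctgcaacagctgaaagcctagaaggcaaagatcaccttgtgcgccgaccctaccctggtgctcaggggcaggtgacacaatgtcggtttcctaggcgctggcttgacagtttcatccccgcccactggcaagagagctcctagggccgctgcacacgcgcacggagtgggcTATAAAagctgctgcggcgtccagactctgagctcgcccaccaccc
Slco2a1: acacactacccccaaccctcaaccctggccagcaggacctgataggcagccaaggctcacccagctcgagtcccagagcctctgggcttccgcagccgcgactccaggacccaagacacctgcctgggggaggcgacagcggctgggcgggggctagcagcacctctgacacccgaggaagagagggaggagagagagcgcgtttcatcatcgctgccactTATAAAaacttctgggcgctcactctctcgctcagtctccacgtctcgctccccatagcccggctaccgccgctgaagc
Ptgs2: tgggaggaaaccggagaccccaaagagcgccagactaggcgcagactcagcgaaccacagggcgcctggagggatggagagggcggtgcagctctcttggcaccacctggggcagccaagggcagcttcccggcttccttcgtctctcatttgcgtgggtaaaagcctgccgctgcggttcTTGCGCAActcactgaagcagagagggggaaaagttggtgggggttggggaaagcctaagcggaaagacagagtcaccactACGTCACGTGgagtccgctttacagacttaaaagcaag
Pla2g4a: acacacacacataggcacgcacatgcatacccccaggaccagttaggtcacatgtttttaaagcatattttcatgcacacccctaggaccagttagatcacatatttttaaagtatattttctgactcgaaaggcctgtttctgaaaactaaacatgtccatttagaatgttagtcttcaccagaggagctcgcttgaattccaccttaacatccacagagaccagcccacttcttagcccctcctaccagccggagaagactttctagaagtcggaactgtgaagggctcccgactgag

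The TATA box letters were found in the Slco2a1 window 29 bases before the RefSeq start and in the Hpgd window from base 5 after the RefSeq start, and 13.6% of all 32851 windows held them. The gene starts of GENCODE M21 differ from those of RefSeq for both genes: the Hpgd match lies 29 bases before its GENCODE start, and the Slco2a1 match lies far inside the gene as GENCODE gives it. The Ptgs2 window held the C/EBP palindrome 69 bases before its start, which 0.183% of all windows held. It also held a cyclic AMP core (7.51% of windows) and an E-box (7.15%) that overlap by 2 bases just after the start. The Ptgs1 window held the glucocorticoid receptor hexamer (19% of windows), and the window of Pla2g4a printed here held none of the 5 motifs. A second RefSeq window of Pla2g4a, at chr1:149922390-149922689 and not printed, held the glucocorticoid receptor hexamer and the TATA box letters. These matches describe letters only, and no binding was measured.

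Ptgs1, the cyclooxygenase that is made without a stimulus in platelets and endothelium, was highest in vein and lowest in artery cells in both libraries. The counting intervals of neighbouring classes did not overlap. In gCap cells its level was 321 CPM in the control library (interval 315 to 328, 10321 UMIs) and 203 CPM in the metastatic library (198 to 208, 6144 UMIs). The log2 ratio of metastatic to control was -0.66 (-0.71 to -0.62), which is a level lower by 36.9%. The share of gCap cells with at least 1 Ptgs1 UMI was 62.3% in the control and 45.9% in the metastatic library, at median depths of 5950.5 and 6275 UMIs per cell. After each cell was thinned to 2000 UMIs, a depth that 4947 of 5020 control and 4461 of 4519 metastatic cells reached, the shares were 39.0% (37.7 to 40.4) and 26.2% (24.9 to 27.5), so the shares also differed at equal depth. Lymphoid cells, a type that should lack the endothelial genes, had a Ptgs1 UMI in 6.85% of 73 cells and 4.0% of 75 cells, at median depths of 4865 and 4770 UMIs.

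In aerocytes Ptgs1 was 123 CPM in control and 84.5 CPM in metastatic cells, giving a log2 ratio of -0.54 (-0.67 to -0.42). In vein cells it was 582 and 430 CPM, giving a log2 ratio of -0.44 (-0.55 to -0.32). The share of vein cells with a UMI was 96.0% and 88.8%, and after thinning 66.3% and 54.8%. Artery cells gave only 25 and 16 UMIs, 50.7 and 32.9 CPM, and the interval of their log2 ratio (-1.63 to 0.34) included 0. Barcodes with 11 to 50 UMIs, which carry mainly free RNA, held Ptgs1 at 74.6 and 72.7 CPM, and lymphoid cells at 12.9 and 7.62 CPM. The aerocyte level lay above free RNA in the control library (117 to 130 against 55.2 to 98.7 CPM). In the metastatic library these 2 intervals overlapped (78.7 to 90.6 against 54.5 to 95.2 CPM). Aerocytes lay above lymphoid cells in both libraries. At 2000 UMIs, 4.76% of control artery cells had a Ptgs1 UMI beside 4.11% of control lymphoid cells. In the metastatic library these shares were 6.78% and 2.70%, and the intervals overlapped in both libraries. The control artery level (interval 32.8 to 74.8 CPM) lay above that of lymphoid cells (4.19 to 30.1 CPM) but not above that of free RNA. Ptgs1 in artery cells was thus not clearly separated from background.

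Platelets carry Ptgs1, and barcodes that carried the platelet list without a vessel class held 240 CPM in the control (25 barcodes) and 262 CPM in the metastatic library (55 barcodes). These barcodes also held Hpgd at 1381 and 2601 CPM, so their Ptgs1 is not a level of platelets alone. The summed level of the 6 platelet markers in gCap cells was 187 CPM in control and 288 CPM in metastatic cells, none of them at 0. In aerocytes the platelet sum was 81.0 and 167 CPM, in vein cells 74.8 and 78.1 CPM, and in artery cells 18.3 and 154 CPM. Without barcodes that carried any platelet marker, the gCap log2 ratio of Ptgs1 was -0.73. The part of platelet RNA in the Ptgs1 values was not tested.

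Hpgd, the inactivating enzyme, was found in nearly every EC. In gCap cells its level was 7693 CPM (7662 to 7723) in control and 5850 CPM (5823 to 5877) in metastatic cells, giving a log2 ratio of -0.40 (-0.40 to -0.39) or 24% lower. In aerocytes it was 5407 and 3979 CPM, giving a log2 ratio of -0.44 (-0.46 to -0.42). In vein cells it was 8203 and 6278 CPM (-0.39, -0.42 to -0.36), and in artery cells 6723 and 4862 CPM (-0.47, -0.54 to -0.39). The order vein, gCap, artery and aerocyte was the same in both libraries without overlap of neighbours. Free RNA held Hpgd at 1584 CPM for the control library and at 2099 CPM for the metastatic one, the opposite order to the cells, and lymphoid cells held 155 and 196 CPM.

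Slco2a1, the uptake transporter, was highest in gCap, followed by aerocyte, vein and artery cells in both libraries, again with no overlap of counting intervals between neighbours. Its level in gCap cells was 1494 CPM in control and 1330 CPM in metastatic cells, giving a log2 ratio of -0.17 (-0.19 to -0.15). In aerocytes it was 1368 and 1233 CPM (-0.15, -0.18 to -0.11). In vein cells it was 1115 and 945 CPM (-0.24, -0.32 to -0.16), and in artery cells 886 and 668 CPM (-0.41, -0.62 to -0.20). Thus Slco2a1 was lower in the metastatic library in each class, and by less than 20% in all but artery cells.

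To place these values, a gene was counted as different when its level in the metastatic library was lower by at least 20% or higher by at least 25%, which is the same fold in both directions, among genes with at least 50 UMIs in both libraries together and 10 CPM in 1 of them. In gCap cells 3 of the 7 genes passed that minimum and 2 of them, Ptgs1 and Hpgd, were lower, against 3.93% of all 8289 genes. In aerocytes 3 passed and the same 2 genes were lower, against 4.37% of 8347 genes. In vein cells 6 passed, 2 were lower (Ptgs1 and Hpgd) and 1 was higher (Pla2g4a), where the background was wider, 12.3% lower and 15.9% higher of 8241 genes. In artery cells 2 passed and both (Hpgd and Slco2a1) were lower, against 16.2% of 3539 genes, so that the artery count says little about these genes. The median log2 ratio of the members that passed was -0.40 in gCap and -0.44 in aerocytes, beside 0.017 and 0.023 over all genes tested. The log2 ratio of Ptgs1 stood at percentile 0.832 of the genes tested in gCap, 1.2 in aerocytes and 6.56 in vein, and that of Hpgd at percentiles 2.82, 2.12 and 8.65.

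Ptgs1 and Hpgd were lower by at least 20% in gCap, aerocyte and vein cells alike, which held for 112 of 7658 genes measured in those 3 classes (1.46%). With Slco2a1 included, all 3 members measured in these classes had intervals below 0 in each of them, as 3.94% of the genes did. Counting intervals narrow with the number of UMIs, and that share covers genes down to the count minimum. It is therefore not a like measure for genes with as many UMIs as Hpgd and Slco2a1. Of the members that passed the count minimum in all 4 classes, Hpgd but not Slco2a1 was lower by at least 20% in each, as were 1.81% of 3490 genes. Ptgs1 was lower by 35.1% in artery cells, but its 25 and 16 UMIs there did not pass the minimum. The vein value of Hpgd lay close to that limit. Without barcodes that carried 2 or more markers of another cell type it was -0.31, and without the 5% of barcodes with the most UMIs -0.319, both just short of 20% lower, and Hpgd then no longer counted in all 3 or all 4 classes. The summed level of 7 monocyte or macrophage markers in vein cells was 37.6 CPM for control and 626 CPM for metastatic cells. The 3 comparisons draw on the same 2 libraries and are not independent of each other.

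**Figure D2:**
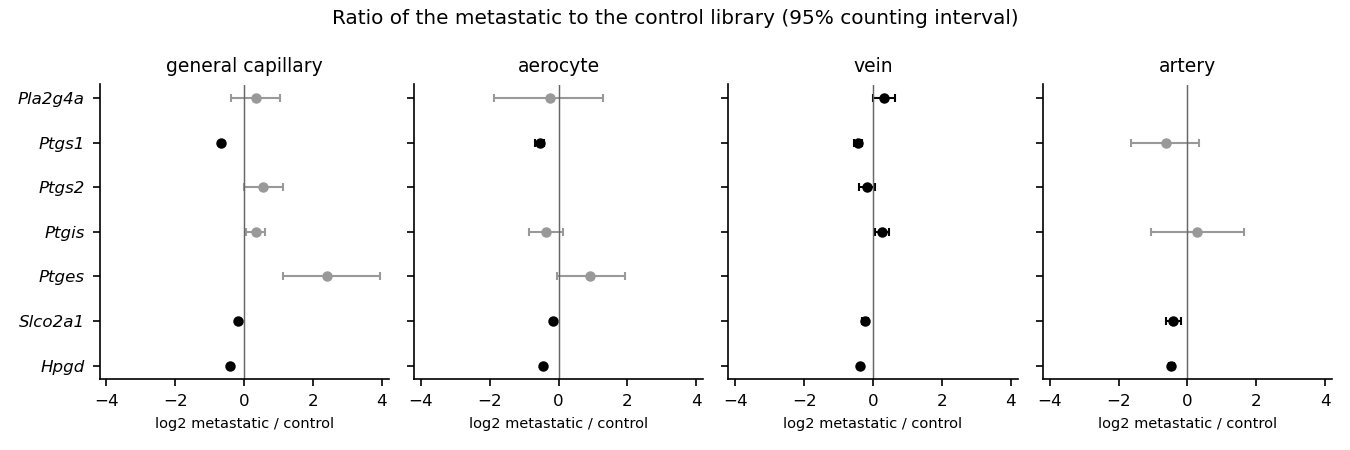
Log2 ratio of the metastatic to the control library for each gene in the 4 classes (horizontal axis, log2 scale), with 95% counting intervals. Black points passed the count minimum, grey points did not, and genes with fewer than 10 UMIs in a class are not drawn. Ptgs1, Slco2a1 and Hpgd lie left of 0 in all 4 classes, although the artery interval of Ptgs1 includes 0.

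The distribution of Hpgd over single cells was also compared. Per 10000 UMIs of a cell, the 10th percentile of gCap cells was 38.2 Hpgd UMIs in the control and 17.3 in the metastatic library, the median was 77.6 and 57.5, and the 90th percentile was 118 and 104. In aerocytes the same 3 points were 24.7, 48.8 and 89.6 in the control and 12.7, 34.5 and 74.6 in the metastatic library, and in vein cells 45.8, 79.8 and 122 against 21.4, 67.2 and 107. Of these points the 10th percentile was the lowest as a ratio to the control in all 3 classes. As a difference in UMIs the fall was similar at the 10th percentile and the median in gCap cells, and in aerocytes it was largest at the 90th percentile.

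gCap cells were then grouped by their own Hpgd count after thinning to 2000 UMIs, a grouping chosen after the values above were seen. Cells with 0 to 4 Hpgd UMIs made up 4.57% (4.0 to 5.19) of 4947 control cells and 16.2% (15.1 to 17.3) of 4461 metastatic cells. Cells with 20 or more made up 27.2% and 15.3%. Metastatic gCap cells therefore lay more often at the low end, while a set of cells at the control level of Hpgd was still present.

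The level of Ptgs1 followed Hpgd in the metastatic library much more than in the control library. In the control library Ptgs1 was 238 CPM in cells with 0 to 4 Hpgd UMIs, 305, 320 and 314 CPM in the next 3 groups (5 to 9, 10 to 14 and 15 to 19) and 355 CPM in cells with 20 or more. In the metastatic library the same 5 groups held 85, 145, 196, 276 and 363 CPM. At 20 or more Hpgd UMIs the intervals of the 2 libraries overlapped (343 to 368 and 345 to 382), whereas at 0 to 4 they were far apart (215 to 262 and 77.1 to 93.4). Slco2a1 went from 973 to 1546 CPM over these groups in the control library, as a ratio no less than Ptgs1 did there, and from 1121 to 1492 CPM in the metastatic library, as a ratio much less than Ptgs1.

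When gCap cells were ranked by Hpgd and cut into 4 groups of equal cell number within each library, the log2 ratio of Ptgs1 was -1.50 (-1.62 to -1.39) in the group with the lowest Hpgd and -1.02, -0.46 and -0.10 (-0.18 to -0.02) in the following groups. These groups cover unlike Hpgd ranges in the 2 libraries. The lowest held 0 to 11 thinned Hpgd UMIs in control and 0 to 6 in metastatic cells, with an Hpgd log2 ratio of -0.99. The median depth of the lowest group, 6044 UMIs per cell in the control and 6493 in the metastatic library, was close to that of the other groups (5808 to 6107 and 5995 to 6485), and its median mitochondrial share was 2.95% and 2.74%. This is a description of cells within 1 library per group.

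**Figure D3:**
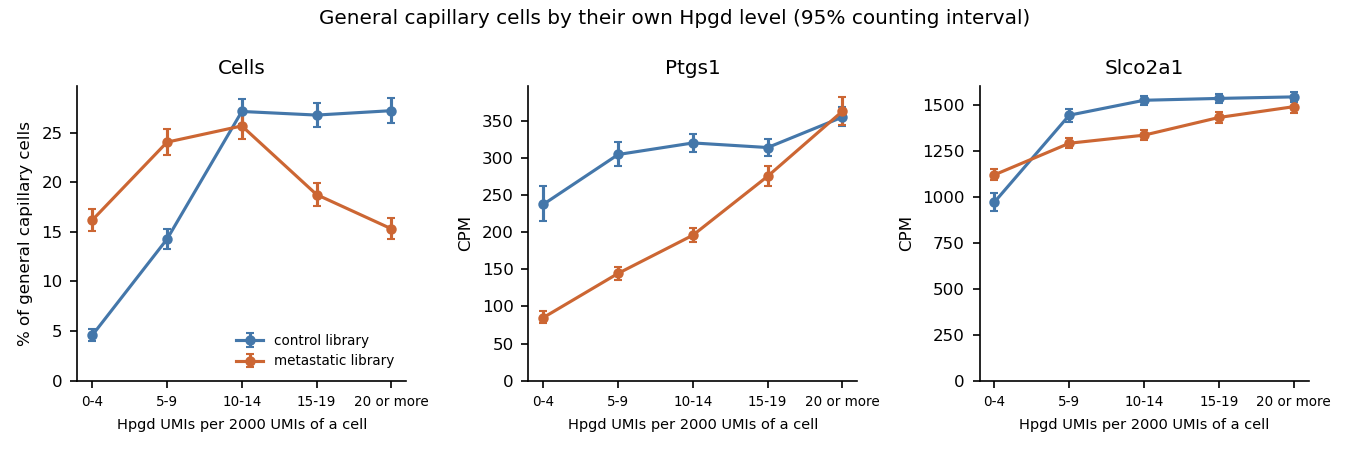
gCap cells grouped by their Hpgd UMIs per 2000 UMIs (horizontal axis): the share of cells in % (left) and the CPM of Ptgs1 (middle) and Slco2a1 (right), with points for each library and lines for 95% counting intervals. The metastatic library has more cells at low Hpgd, and its Ptgs1 level climbs from 85 to 363 CPM while the control level goes from 238 to 355 CPM.

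The study describes a reactive state of gCap cells, and cells with 3 or more of 7 of its marker genes (Inhbb, Bcl3, Adamts9, Tmem252, Osmr, Scarb1 and Pim3) after thinning are called reactive here. That list was chosen by the study with these libraries among its samples. Reactive cells numbered 334 in the control and 490 in the metastatic library. Ptgs1 in reactive cells was 398 CPM in control and 164 CPM in metastatic cells, giving a log2 ratio of -1.27 (-1.43 to -1.12). In the other gCap cells it was 315 and 208 CPM (-0.60, -0.65 to -0.55). Reactive cells thus held more Ptgs1 than the others in the control library and less in the metastatic library.

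Hpgd in reactive cells was 6343 CPM in control and 3645 CPM in metastatic cells, giving a log2 ratio of -0.80 (-0.83 to -0.76), beside 7799 and 6144 CPM (-0.34, -0.35 to -0.33) in the others. Slco2a1 behaved differently, with 1566 and 1490 CPM in reactive cells (-0.07, -0.13 to -0.01) and 1489 and 1308 CPM in the others (-0.19, -0.21 to -0.17). In the group of equal cell number with the lowest Hpgd, 10.8% of control and 25% of metastatic cells were reactive, and in the group with the highest 4.29% and 4.48%. Most cells of the lowest group were therefore not reactive in either library. The difference between the states has no replicates and was not tested.

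gCap cells were also split by stray markers of the larger vessels. Ptgs1 increased from the arterial to the venous side: gCap cells with 1 artery marker held 163 CPM in control and 122 CPM in metastatic cells, cells with neither marker 331 and 200 CPM, and cells with 1 vein marker 398 and 349 CPM. The log2 ratio between the libraries was -0.19 (-0.35 to -0.04) in cells with 1 vein marker and -0.42 (-0.64 to -0.20) in cells with 1 artery marker, intervals that overlap, and -0.73 (-0.78 to -0.68) in cells with neither marker. Vein cells themselves had -0.44. Hpgd was likewise closer between the libraries in cells with 1 vein marker (-0.20, -0.24 to -0.16) than in cells with neither (-0.40, -0.41 to -0.39) or with 1 artery marker (-0.41, -0.44 to -0.38). Slco2a1 in cells with 1 vein marker was 1259 and 1273 CPM, and the interval of its log2 ratio (-0.07 to 0.10) included 0. The venous side held 243 and 220 cells.

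**Figure D4:**
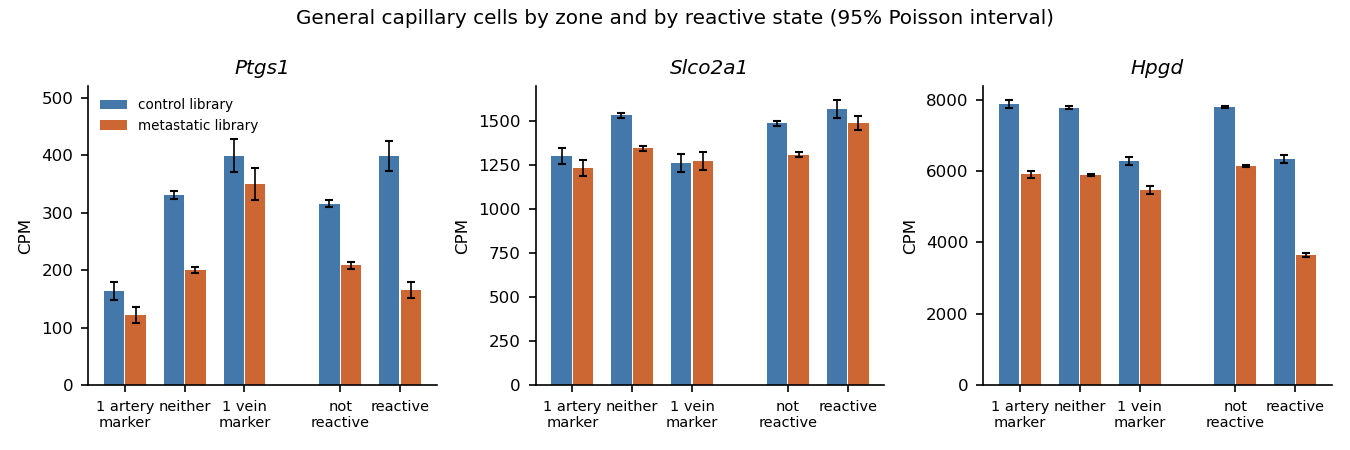
Ptgs1, Slco2a1 and Hpgd in gCap cells, in CPM with 95% Poisson intervals, by stray marker of artery or vein (left 3 pairs of bars) and by reactive state (right 2 pairs), for the control and metastatic libraries. Ptgs1 of reactive cells is 398 CPM in control and 164 CPM in metastatic cells, and the Slco2a1 bars differ least.

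Vein cells carried the inducible and prostacyclin arms of the pathway. A gene was counted for a class when it was at least 2-fold above the other 3 classes together in both libraries, and vein cells were above for 4 of the 7 genes (Pla2g4a, Ptgs1, Ptgs2 and Ptgis), against 3.73% of 9660 genes. Ptgs2, the stimulus-induced cyclooxygenase, was 135 CPM in vein against 1.3 CPM in the other classes in the control library, which is 108-fold higher. In the metastatic library it was 120 against 1.72 CPM, 70.0-fold higher. Ptgis, the prostacyclin synthase, was 20.9-fold higher in vein than in the other classes in the control and 22.5-fold higher in the metastatic library. Pla2g4a, which supplies the substrate, was 56.7-fold and 62.2-fold higher. For Ptgs1 these folds were 2.18 and 2.48. In turn, gCap cells were at least 2-fold below the other 3 classes together in both libraries for Pla2g4a, Ptgs2 and Ptgis (4.11% of genes). Aerocytes were for Pla2g4a, Ptgs1 and Ptgs2 (5.49% of genes) and artery cells for Ptgs1 (4.02% of genes). Those other classes include vein cells, and gCap cells were not 2-fold below aerocytes alone for any of their 3 genes. Pla2g4a was 1.0 and 1.3 CPM in gCap cells and 0.883 and 0.746 CPM in aerocytes of the control and metastatic libraries. Ptgs2 was 1.46 and 2.15 against 0.53 and 0.32 CPM, and Ptgis 6.11 and 7.69 against 8.21 and 6.39 CPM. Against artery cells, which held few UMIs of these genes, gCap levels were lower except for Ptgs2 in the metastatic library. The class markers used no member of the set.

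Between the libraries Ptgs2 in vein cells was 135 CPM (120 to 151, 297 UMIs) and 120 CPM (108 to 134, 322 UMIs), and the interval of its log2 ratio of -0.16 (-0.39 to 0.07) included 0. The share of vein cells with a Ptgs2 UMI was 32.4% (26.6 to 38.6) of 247 control cells and 32.6% (27.3 to 38.1) of 304 metastatic cells. Single cells held up to 27 of the 297 and 36 of the 322 UMIs, so that the UMIs were spread unevenly over the cells. None of the 73 and 75 lymphoid cells had a Ptgs2 UMI, which, at 3 counts, allows a share of cells with a UMI of up to 4.11% and 4.0%. Free RNA held 64 and 83.7 CPM of Ptgs2, a higher level than gCap or aerocyte cells.

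Ptgis in vein cells was 142 CPM (127 to 159) in control and 171 CPM (155 to 187) in metastatic cells, giving a log2 ratio of 0.26 (0.05 to 0.47) and higher by less than 25%. After thinning, 21.5% (16.6 to 27.2) and 32.0% (26.8 to 37.6) of vein cells had a Ptgis UMI, intervals that overlap slightly. Pla2g4a was 59.4 and 74.4 CPM, giving a log2 ratio of 0.32 (0.00 to 0.65) with an interval that just included 0, and 10.2% and 13.9% of the thinned vein cells had a UMI. Vein cells with all 3 vein markers held more Ptgs2, Ptgis and Pla2g4a than those with exactly 2, for example 183 against 90.9 CPM of Ptgis among control cells and 208 against 122 CPM among metastatic cells. Ptgs1 ran the other way, with 555 against 616 CPM and 400 against 470 CPM.

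Barcodes of other cell types touched the vein values. The 7 monocyte or macrophage markers summed to 37.6 CPM in vein cells of the control and 626 CPM of the metastatic library, of which Lyz2 made up the largest part, and 2 and 1 of them were at 0. Without barcodes that carried 2 or more markers of another cell type, Hpgd in vein had a log2 ratio of -0.31 and Pla2g4a one of 0.30, both then within the limits of 20% lower and 25% higher, while Ptgs1 had -0.38 (-0.51 to -0.26) and Ptgis 0.29 (0.07 to 0.51).

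Within single vein cells, pairs of synthesis genes were found together both more and less often than the product of their shares. At 2000 UMIs, Pla2g4a and Ptgs2 were both found in 8 of 246 control cells (3.56 from the product of shares) and in 11 of 303 metastatic cells (6.10). Ptgs2 and Ptgis were both found in 12 (7.54) and 15 (14.1) cells, and Ptgs1 and Ptgs2 in 25 (23.2) and 27 (24.1) cells. Ptgs1 and Ptgis were both found in 34 (35.1) and 51 (53.1) cells, and Pla2g4a and Ptgs1 in 17 (16.6) and 17 (23) cells. These counts are small and serve as a description.

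In gCap, aerocyte and artery cells the same genes were rare. Ptgs2 in gCap cells amounted to 47 UMIs in 14 control cells and 65 UMIs in 18 metastatic cells, and most of them lay in cells with 1 vein marker, 40 UMIs in 8 cells and 43 UMIs in 4 cells. gCap cells with neither marker held 3 and 19 Ptgs2 UMIs, in 3 and 12 cells. Ptgis in gCap cells was 6.11 and 7.69 CPM, giving a log2 ratio of 0.33 (0.05 to 0.61), and in aerocytes 8.21 and 6.39 CPM (-0.36, -0.85 to 0.12). In artery cells Ptgis amounted to 10 and 12 UMIs in 3 cells each. Pla2g4a was 1.0 and 1.3 CPM in gCap and 0.883 and 0.746 CPM in aerocytes, with overlapping intervals.

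Ptges, the inducible prostaglandin E2 synthase, was nearly absent from the counts. gCap cells held 6 UMIs in the control and 30 in the metastatic library, giving a log2 ratio of 2.41 (1.12 to 3.96), but 11 of the 30 UMIs came from 1 cell and the 30 came from 16 of 4519 cells. Aerocytes held 16 and 25 UMIs (log2 ratio 0.91, -0.05 to 1.92), vein cells 2 and 0, and artery cells 1 and 1. The upper limit for the metastatic vein level was 1.38 CPM.

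Members of the set were also counted in barcodes of other cell types outside the 4 classes. All 5 barcodes with neutrophil markers and no vessel class (1 control, 4 metastatic) held Ptgs2, with 5 and 21 UMIs. Barcodes with mesenchymal markers held Ptgis at 256 CPM in the control (8 barcodes) and 645 CPM in the metastatic library (11 barcodes), beside 12.2 and 16.5 CPM in free RNA. Their Hpgd was 3078 and 446 CPM, so the barcodes of the 2 libraries were not alike in endothelial RNA. Barcodes with monocyte or macrophage markers (30 and 31) held Ptgs2 at 55.6 and 19.95 CPM, from 2 and 3 cells, which was below its level in free RNA. They held Pla2g4a at 20.2 and 47.4 CPM, beside 19.8 and 15.1 CPM in free RNA. Barcodes with platelet markers held Pla2g4a at 120 CPM in the control (10 UMIs, 25 barcodes). In the metastatic library these held 55.3 CPM (11 UMIs, 55 barcodes). Vein cells held 59.4 and 74.4 CPM, so among all barcodes Pla2g4a was not confined to vein cells. In contrast, no UMI of Pla2g4a, Ptgs2, Ptgis or Ptges was found in the lymphoid cells.

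The remainder of the pathway was read from a list of 45 further genes, of which 17 reached 20 CPM in some class of either library. In gCap cells 15 passed the count minimum, none was lower and 2 were higher (background 7.34% higher), Lpcat3 (56.8 to 71.3 CPM), which loads arachidonic acid into phospholipids, and Alox12 (15.5 to 21.6 CPM), the platelet 12-lipoxygenase. In aerocytes 16 passed, none was lower and only Alox12 was higher (5.65 to 12.0 CPM, background 7.84% higher). The summed level of the platelet markers was higher in the same cells, 187 and 288 CPM in gCap and 81.0 and 167 CPM in aerocytes, and its part in the Alox12 values was not tested. The median log2 ratio of the list was 0.11 in gCap and 0.06 in aerocytes. The 3 synthase genes that reached 20 CPM were Ptges3, the constitutive prostaglandin E synthase and Hsp90 cochaperone, Cbr1 and Akr1b3, and their gCap log2 ratios were 0.11, 0.28 and 0.20.

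Of the other inactivating enzymes that reached 20 CPM, none was lower by 20% in gCap cells, and their difference from Hpgd was not tested. Ptgr2 was 21 and 20.7 CPM, Zadh2 was 21.2 and 18.5 CPM with a log2 ratio of -0.20 (-0.36 to -0.03), and Cbr3 was 19.8 and 21 CPM. On the release side, Mgll, the monoacylglycerol lipase, differed little in aerocytes (392 and 384 CPM) and Acsl4, which traps free arachidonic acid, was 42.1 and 34.7 CPM in gCap (-0.28, -0.40 to -0.16). Of the 9 receptors only Tbxa2r, the thromboxane receptor, reached 20 CPM, with 26.1 and 29.6 CPM in aerocytes. Cysltr1, a receptor for cysteinyl leukotrienes, was a vein gene, with 46.2 and 40.0 CPM in vein cells and under 1 CPM in gCap and aerocytes.

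In vein cells 17 of the list passed, 1 was lower (Zadh2, log2 interval -0.94 to 0.14) and 6 were higher (background 12.3% lower and 15.9% higher). The largest of these were Ltc4s (3.63 to 17.2 CPM) and Alox5ap (8.16 to 26.9 CPM), both of the leukotriene branch and typical of myeloid cells. Without barcodes carrying 2 or more markers of another cell type, Ltc4s was 4.02 and 4.42 CPM and Alox5ap 7.54 and 7.95 CPM, so neither was then higher by 25%. Mgll likewise fell under that size (26.1 and 29.6 CPM), whereas Akr1b3 (67.9 and 86.5 CPM), Cbr3 (15.6 and 22.1 CPM) and Ptgr2 (18.1 and 23.4 CPM) did not. The intervals of the log2 ratio then included 0 for Cbr3 (-0.17 to 1.20) and Ptgr2 (-0.27 to 1.02) but not for Akr1b3 (0.03 to 0.68). In artery cells 3 passed, none lower and 2 higher, Lpcat3 (58.8 to 84.3 CPM) and Ptges3 (162 to 214 CPM), against 20.9% higher over all genes. The log2 intervals of both included 0 (-0.20 to 1.26 and -0.04 to 0.84).

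**Figure D5:**
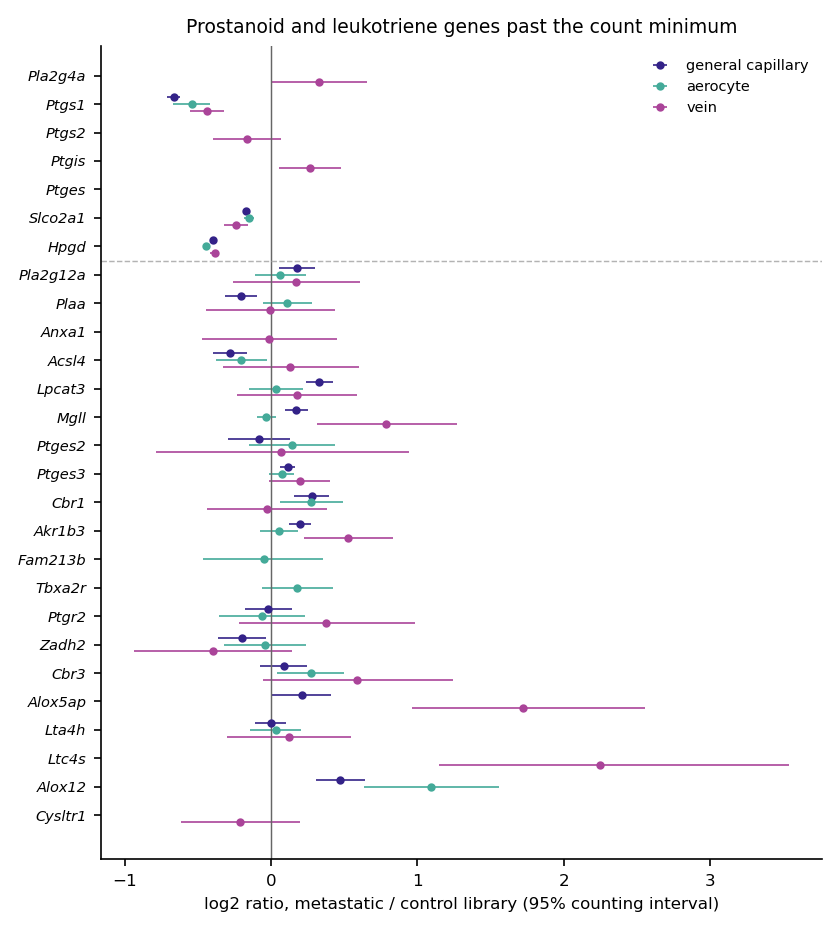
Log2 ratio of the metastatic to the control library (horizontal axis, log2 scale, 95% counting intervals) for the 7 genes above the dashed line and the listed pathway genes below it, drawn for gCap, aerocyte and vein cells where a gene passed the count minimum. Ptgs1 and Hpgd lie left of the other genes in gCap cells, and the vein points of Ltc4s and Alox5ap lie far to the right.

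The genes most like each member were ranked by Pearson's r over the 8 values of 4 classes and 2 libraries among 4676 genes. Such r values share libraries and class structure and are descriptive. Ptgis (r = 0.994) and Nr2f2 (0.993), the transcription factor of venous identity, were closest to Pla2g4a, followed by the vein marker Car8. Insr (0.998) was closest to Ptgs2, and the vein marker Bst1 was also among its 3 most alike genes. Ramp3 (0.980), a receptor-modifying protein of the adrenomedullin system, was closest to Ptgs1. Arl4a (0.987), Ccm2l and Fzd4 were closest to Hpgd, and Ddx24 (0.980), Cish and Vamp2 to Slco2a1.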

How the data were processed

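The 2 10x Genomics 3′ libraries of PECAM1-sorted lung cells were 1 control and 1 metastatic. The deposited values are raw UMI counts per gene and barcode for all 6794880 listed barcodes, which the authors made with Cell Ranger on mm10 without normalization or cell filtering, and the file headers name software version 3.1.0. The annotation release counted on is not given in the sources used here. The 7 genes, the pathway and marker lists and the class rules were chosen with earlier results of these data known. The 46 and 32 barcodes that met more than 1 class rule were left out and no doublets were removed. UMIs were added up within each class, and CPM were computed with exact Poisson intervals, shares with Clopper-Pearson intervals and ratios with exact conditional binomial intervals, all at 95% and for counting error only. With 1 library per group no p-value was computed. Thinning drew 2000 UMIs per cell. Pathway genes were named when they reached 20 CPM in any class, and the 3 most alike genes of a member were named, by Pearson's r of log2(CPM + 1) among genes of at least 50 CPM. One such alike gene is not reported here. Ltc4s, which did not reach 20 CPM, was named after its values were seen. The intervals and the thinning were tested on simulated data. Python 3.11.15, numpy 2.4.6, scipy 1.17.1, pandas 2.3.3, and, for alternative scaling factors only, R 4.3.3 with edgeR 4.0.16 were used. Alternatives changed the gene and mitochondrial limits, the scaling, the class rules and the removal of doubtful barcodes.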

Additional observations from a re-analysis of the deposited data

Results flagged for a closer look

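Ptgs2 in gCap cells went in opposite directions by reactive state. In reactive cells it was 21 UMIs in 3 of 334 control cells and 3 UMIs in 3 of 490 metastatic cells, giving a log2 ratio of -3.44. In the other gCap cells it was 26 UMIs in 11 control cells and 62 UMIs in 15 metastatic cells, giving a log2 ratio of 1.41. The difference was not tested, and since a few cells hold these UMIs, the counting intervals are too narrow for it.

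In barcodes outside the 4 endothelial classes, signals above the control library were seen for 2 genes. Hpgd in barcodes carrying platelet markers was 1381 CPM in the control (25 barcodes) and 2601 CPM in the metastatic library (55 barcodes), giving a log2 ratio of 0.91. Free RNA held 1584 and 2099 CPM of Hpgd, a similar level in the same direction, and its part in these barcodes was not tested. Ptgis in barcodes with mesenchymal markers was 7 UMIs in 2 of 8 control barcodes and 52 UMIs in 6 of 11 metastatic barcodes, giving a log2 ratio of 1.33. These barcodes also differed in genes of the ECs. The control ones held Hpgd at 3078 CPM and Slco2a1 at 513 CPM, against 446 and 24.8 CPM in the metastatic ones. The part of endothelial RNA in the Ptgis ratio was not tested. Neither the Hpgd nor the Ptgis difference between the libraries was tested.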

How the results depend on the processing

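No paired analysis was possible because each group held 1 library. Ptgs1, Hpgd and Slco2a1 kept negative log2 ratios in all 4 classes under every alternative run. In gCap cells Ptgs1 was -0.73 without barcodes carrying platelet markers, -0.77 without any marker of the other classes and -0.61 with each barcode weighted equally. Hpgd in gCap was -0.41 without any marker of the other classes, -0.42 with TMM scaling, -0.43 with median-of-ratios scaling and -0.38 with equal weights. Slco2a1 in gCap was -0.19 with TMM and -0.20 with median-of-ratios scaling. In vein cells, leaving out barcodes with markers of another cell type gave -0.31 for Hpgd and -0.15 for Slco2a1, and leaving out the 5% of barcodes with the most UMIs gave -0.32 for Hpgd and 0.073 for Ptgs2. Hpgd in vein was -0.42 without platelet-marker barcodes and -0.34 with equal weights, and Slco2a1 was -0.14 in cells with all 3 vein markers set as the rule. Vein cells with exactly 2 markers, a split chosen after seeing the data, gave -0.46 for Ptgs2.

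Ptgs2 in gCap cells ranged from -0.14 to 4.18 and Ptges from 0.29 to 4.54, so neither value is stable. Without the count minimum the genes lower by 20% numbered 2528 instead of 326 in gCap, 1861 instead of 365 in aerocytes, 2148 instead of 1014 in vein and 2686 instead of 573 in artery. Those higher numbered 3176 instead of 608, 2789 instead of 654, 3094 instead of 1311 and 3347 instead of 738. At 1.5-fold, 100, 87, 222 and 192 genes were lower and 166, 168, 473 and 246 higher, and at 2-fold 13, 14, 31 and 35 were lower and 38, 37, 160 and 43 higher. Subtraction of free RNA gave log2 ratios in artery cells only, among them -0.68 for Hpgd, -0.62 for Slco2a1 and -0.71 for Ptgs1. It gave levels in 1 library each of aerocyte and vein cells and none in gCap cells. In these 3 classes the 2 epithelial genes meant to scale it were above their share in free RNA in at least 1 library. Few UMIs were counted for Ptges in each class and for Ptgs1, Ptgs2 and Pla2g4a in artery cells, so that counting error limits these values.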
